A study of Danio rerio with 16 samples.

Results

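Nuclear receptor genes encode transcription factors that bind DNA directly, and many of them change activity when a small lipophilic ligand such as a steroid, thyroid hormone, retinoic acid, oxysterol or fatty acid binds the protein. Others are orphan receptors with no accepted natural ligand, and these are often regulated through how much of the protein is made. In the vertebrate brain the family couples hormone and nutrient state to gene expression, and the COUP-TF (NR2F) and Tailless (NR2E) genes are known from mouse for roles in regional identity and neural stem cells. Members were chosen by gene name: rows of the count table were summed per symbol, and symbols were kept that match a set of zebrafish nuclear receptor names. The rule found 69 of 30565 symbols, from 83 rows. Of these, 66 encode receptors, and 3 (nr2c2ap, thrap3a and thrap3b) match by name but encode proteins that associate with receptors. By branch the receptors comprise 3 NR0, 25 NR1, 16 NR2, 12 NR3, 4 NR4, 4 NR5 and 2 NR6 genes. The 3 HNF4 genes and genes with nr1h or nr1i names, among them the oxysterol receptor genes, lie outside the naming rule.

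The data are RNA-seq of sorted brain cells from zebrafish aged 1 month. LH cells carried GCaMP6s, a calcium indicator, in the line Tg(76A:Gal4FF;UAS:GCaMP6s), used to mark the lateral hypothalamus, and non-LH cells were the GCaMP6s-negative cells. cH cells carried GFP in the line Tg(116A;Gal4FF:UAS:GFP), used to mark the caudal hypothalamus, and non-cH cells were the GFP-negative cells. Each of the 4 groups had 4 libraries, each from 8 pooled brains, so no value belongs to a single fish. All groups came from whole brains dissociated with papain and sorted by flow cytometry, and the negative cells are brain cells of every other kind. In both lines Gal4FF drives the reporter, so the positive cells are whatever cells the driver marks, and the line, the reporter and the cell population cannot be told apart between LH and cH.

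Libraries held between 26.8 M and 49.4 M (mega) counts. Between 54 and 56 of the 66 receptors were detected in each LH library, 56 to 59 in non-LH, 34 to 43 in cH and 50 to 57 in non-cH. Detection over all 30565 symbols was lowest in cH too, at 13478 to 16887 per library. It was 18843 to 20541 in non-cH, 19430 to 20038 in LH and 20572 to 21015 in non-LH. Counts were 0 in all 4 libraries for 15 receptors in cH and 5 in non-cH, and for 7 receptors in LH and 2 in non-LH. cH libraries were also uneven: of the 44 receptors that reached 100 counts in some cH library, 15 (34.1%) were at 0 in another, against 10 of 55 for non-cH libraries, 5 of 50 for LH libraries and 2 of 51 for non-LH libraries. Over all symbols that share was 41.1% in cH, so it was not particular to receptors. It was 12.1% in non-cH, 8.86% in LH and 5.95% in non-LH over all symbols. Against the labels, tph1a and th2, monoamine synthesis genes of the caudal hypothalamus, averaged 268 ± 281 and 218 ± 250 CPM in cH libraries, with 6.23 ± 2.75 and 5.76 ± 6.02 CPM in non-cH libraries (SD, n = 4). In cH 1 to 4, tph1a was at 364, 622, 40.5 and 45.3 CPM and th2 at 167, 585, 56.3 and 64.8. Of the 5 genes in that monoamine list, 2 were called higher in cH and 0 lower. hdc, also in the list, was at 0, 12.4, 0.182 and 0 CPM in cH, with 10.6, 3.59, 7.28 and 4.14 in non-cH. Of 7 hypothalamic transcription factor genes tested in cH, 1 was higher, nkx2.4a, and 0 were lower, with a median log2 fold change of -1.90. Among them lef1 was at 13.0, 163, 42.3 and 48.2 CPM in cH, below its 340, 292, 273 and 333 CPM in non-cH, and otpb was at 0 in 3 of 4 cH libraries. Radial glia markers summed to 57613 to 113837 CPM in cH and to 3853 to 10682 CPM in non-cH. Pan-neuronal markers summed to 1270 to 2875 CPM in cH and to 15191 to 16285 CPM in non-cH. Of 8 hypothalamic transcription factor genes tested in LH, 2 were higher and 3 lower, with a median log2 fold change of -0.48. Among them the homeobox gene rx3 averaged 29.8 ± 17.1 CPM in LH, with 5.68 ± 2.57 in non-LH. lef1, which marks part of the hypothalamus, averaged 50.5 ± 21.0 CPM in LH, with 251 ± 24.4 in non-LH. Pan-neuronal sums were close in that line, at 12210 to 13837 CPM in LH and 13208 to 14331 CPM in non-LH. CPM here are counts per M counts of the library size, scaled by TMM, a factor that ranged from 0.854 to 1.06.

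Among the subfamily sums, the ratio of LH to non-LH was highest in NR2F. The summed CPM of its 6 genes was 1907 ± 200.5 in LH with 508 ± 65.7 in non-LH, and 450 ± 128 for cH with 484 ± 70.6 for non-cH (SD, n = 4). The LH libraries ran from 1623 to 2049 CPM and did not overlap any other group. The NR1F genes, the retinoic acid receptor-related orphan receptors (RORs), ran the other way: they summed to 141 ± 3.71 in LH with 321 ± 19.3 in non-LH, and to 175 ± 72.3 in cH with 386 ± 46.1 in non-cH. NR1F sums were lower in the positive cells of either line, without overlap with their negative cells. The retinoic acid receptors (NR1B) summed to 79.4 ± 14.1 CPM in LH with 160 ± 11.6 for non-LH, and to 155 ± 35.1 in cH with 147 ± 22.9 for non-cH. The estrogen-related receptors (NR3B) were at 56.1 ± 8.88 in LH and 111 ± 11.2 in non-LH, with 84.3 ± 25.7 in cH and 92.2 ± 14.2 in non-cH. In these subfamilies LH lay below non-LH without overlap, while cH and non-cH overlapped. The estrogen receptors (NR3A) lay higher in LH, at 37.3 ± 6.09 with 14.9 ± 5.89 in non-LH, again without overlap, with 21.0 ± 10.4 in cH and 20.2 ± 7.62 in non-cH. A subfamily sum takes no test here, since it is dominated by its most counted gene.

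The NR5A and NR2C sums lay lower in cH than in non-cH without overlap. The highest ratios of cH to non-cH means were in NR2E, NR1C, NR1I, NR3C and NR0B, in that order. In each of them the cH range overlapped that of non-cH. The mean NR1C sum was 125 ± 112 CPM for cH libraries against 60.1 ± 3.22 for their negative cells. For NR1I these means were 37.7 ± 16.4 against 20.8 ± 6.19, and for NR0B 11.7 ± 16.9 against 7.17 ± 3.44. NR2E, here nr2e1 alone because nr2e3 had 0 counts in every library, averaged 126 ± 88.6 CPM in cH with 21.3 ± 8.90 for non-cH, and 13.3 ± 4.02 in LH and 26.9 ± 2.18 in non-LH. NR3C, the receptors for glucocorticoids, mineralocorticoids, progesterone and androgens, was at 94.2 ± 38.8 in cH and 53.8 ± 13.6 in non-cH, with 19.0 ± 4.14 in LH and 24.5 ± 4.74 in non-LH. NR5A had no count in any cH library and averaged 24.0 ± 9.85 CPM in non-cH, and it was at 19.3 ± 5.52 in LH with 29.6 ± 4.76 in non-LH. The orphan receptors NR2C were at 21.5 ± 24.5 in cH and 79.1 ± 20.3 in non-cH. Among these libraries cH 2 had 0, cH 3 had 46.9 and the lowest of non-cH had 48.7, so the gap between the groups was narrow. All 66 receptors together took 3418 ± 180.2 CPM in LH and 2268 ± 195 in non-LH, without overlap. Without nr2f2 the sums were 2103 ± 102 in LH and 2095 ± 186 in non-LH, so the difference between those totals was carried by nr2f2. The totals in cH and non-cH were 2436 ± 591 and 2630 ± 359.

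**Figure D1:**
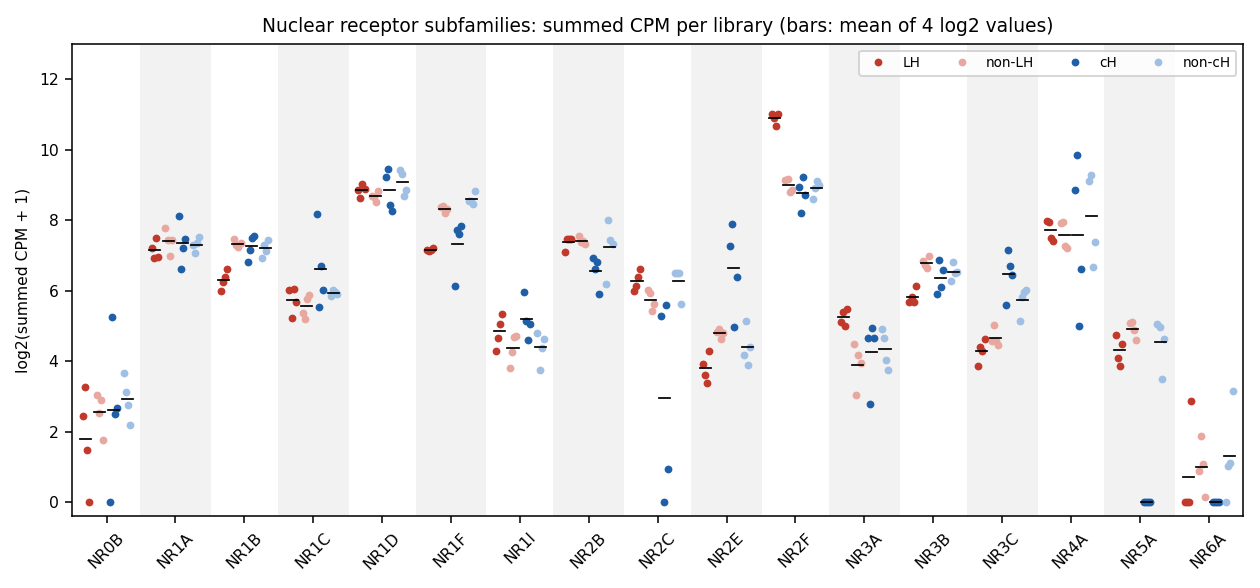
Summed CPM of each receptor subfamily, as log2(summed CPM + 1), for the 4 libraries (points) of each group, with a bar at the mean of the log2 values. NR2F is above all other groups in the 4 LH libraries, NR1F is lower in LH and cH than in their negative cells, and NR5A is at 0 in every cH library.

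**Figure D2:**
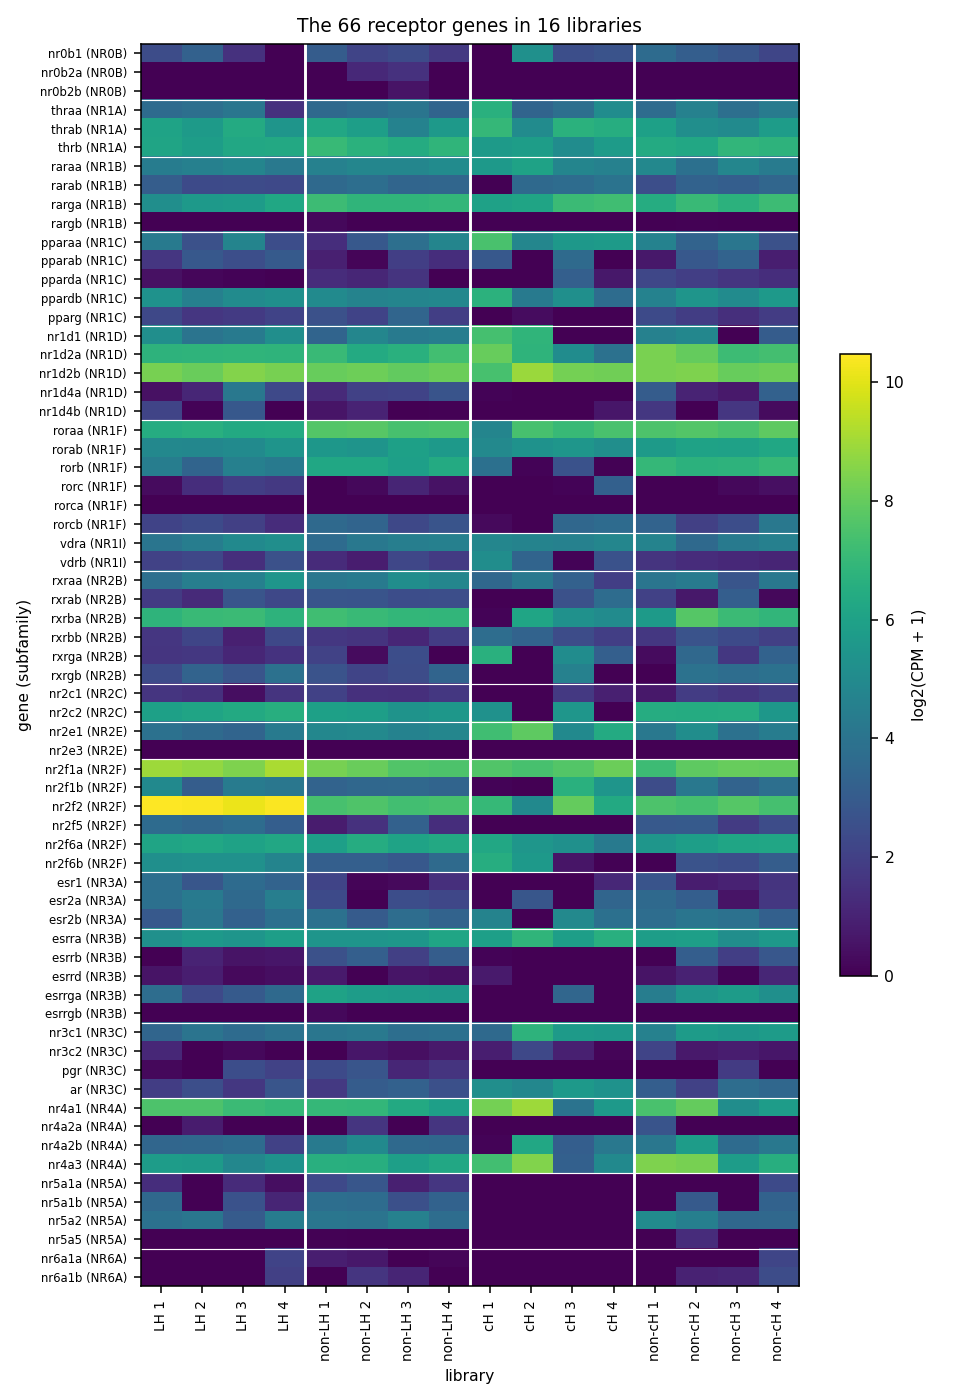
Level of each of the 66 receptor genes in each of the 16 libraries, as log2(CPM + 1), with subfamilies separated by thin lines and groups by thick ones. The row of nr2f2 is brightest in LH, and many rows of the cH block change from dark to bright between single libraries.

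The first comparison, of LH with non-LH cells, asks which receptors mark the lateral hypothalamic population. With edgeR's quasi-likelihood test on the 8 libraries and Benjamini-Hochberg adjustment over all symbols tested, 10 of the 59 members that passed the low-count filter were called, 3 higher and 7 lower. The 3 higher were all COUP-TF genes: nr2f2, nr2f6b and nr2f1a. The 7 lower were roraa, rorb, esrrga, rarga, nr2e1, nr4a3 and thrb. Of all 18674 symbols tested, 13.4% were called, 7.14% higher and 6.24% lower, against 16.9% of the members, so the share of members called was near that of all genes. The median log2 fold change was -0.10 over the members tested and -0.01 over all symbols. In bulk RNA a lower share of cells of a type and less RNA per cell cannot be told apart. Where all 16 libraries shared 1 estimate of the spread, cH libraries included, nr2f2 alone remained called (adjusted p = 0.00255).

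nr2f2 encodes COUP-TFII, an orphan receptor that mostly represses transcription. It was at 1413, 1344, 1141 and 1363 CPM in LH libraries 1 to 4, and at 169, 192, 158 and 172 CPM in non-LH. Every LH library was far above every non-LH library, and the log2 fold change was 2.93 ± 0.10 (SE; edgeR adjusted p = 3.72e-07). Within NR2F, nr2f2 took 69.1% ± 1.81 of the summed CPM in LH with 34.2% ± 3.09 for non-LH, and 24.7% ± 13.6 in cH with 38.0% ± 7.37 for non-cH. Its paralog nr2f1a, which encodes COUP-TFI, was at 491, 433, 349 and 559 CPM in LH and at 315, 269, 195 and 185 in non-LH. These groups did not overlap either, but the gap was narrower, with a log2 fold change of 0.93 ± 0.20 (edgeR adjusted p = 0.0118). nr2f6b, one of the pair of genes for the COUP-TF relative EAR2, was at 36.5, 38.4, 38.3 and 25.5 CPM in LH and at 8.07, 8.07, 6.34 and 11.3 in non-LH. It rose by a log2 fold change of 2.04 ± 0.26 (edgeR adjusted p = 0.000596), whereas its paralog nr2f6a was level, at 70.6 ± 5.89 in LH and 72.9 ± 13.3 in non-LH. nr2f5, a COUP-TF gene of fish, was at 11.5, 9.90, 11.9 and 7.79 CPM in LH and at 0.719, 1.84, 8.45 and 1.57 in non-LH. The groups overlapped through non-LH 3 and the change was not called (1.71 ± 0.71, edgeR adjusted p = 0.162). Without non-LH 3 it was called, at 2.88 with an adjusted p of 0.00870. The calls for nr2f2, nr2f1a and nr2f6b held in each of the 8 fits that left out 1 library.

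Among the RORs, which bind as monomers and in mammals oppose the REV-ERB receptors in the circadian clock, roraa and rorb fell in LH. roraa was at 88.7, 95.3, 80.5 and 82.6 CPM in LH and at 203, 213, 171 and 179 CPM in non-LH, a log2 fold change of -1.14 ± 0.11 (edgeR adjusted p = 0.000145). rorb, known from mouse in sensory cortex and retina, was at 20.7, 9.23, 22.4 and 18.1 CPM in LH and at 74.0, 73.8, 58.8 and 83.0 in non-LH. Its log2 fold change was -2.04 ± 0.27 (edgeR adjusted p = 0.000889). Neither pair of groups overlapped. The other RORs were not called: rorab averaged 32.3 ± 6.55 in LH and 49 ± 8.35 in non-LH, rorcb 2.94 ± 1.08 and 7.41 ± 3.26, and rorca had 0 counts in every library. rorc had the higher mean in LH, at 1.74 ± 1.13 with 0.427 ± 0.488 in non-LH, with overlap (edgeR adjusted p = 0.437).

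esrrga, an estrogen-related receptor gene whose mammalian counterpart controls mitochondrial and neuronal genes, had a larger fitted fall than any other called member in LH. It was at 12.3, 3.90, 6.73 and 11.0 CPM in LH and at 65.2, 53.7, 50.4 and 47.3 in non-LH (log2 fold change -2.68 ± 0.35, edgeR adjusted p = 0.000765). Its relative esrra, the more counted NR3B gene, was at 46.7 ± 8.53 in LH and 50.1 ± 13.1 in non-LH and was not called. esrrb, a low NR3B gene, was at 0.525 ± 0.438 in LH and 5.87 ± 2.34 in non-LH, without overlap. It was not called either (-3.47 ± 1.11, edgeR adjusted p = 0.0710), but was called without LH 1 (edgeR adjusted p = 0.0252). The retinoic acid receptor gene rarga was at 35.5, 48.5, 52.6 and 74.9 CPM in LH and at 142, 115, 113 and 119 in non-LH, without overlap (-1.21 ± 0.21, edgeR adjusted p = 0.00423). Of the other retinoic acid receptors, rarab was at 4.95 ± 1.69 in LH and 10.8 ± 1.53 in non-LH, also without overlap but past no threshold (edgeR adjusted p = 0.0664), and raraa at 21.6 ± 3.67 and 27.3 ± 3.53. roraa, rorb, esrrga and rarga kept their calls in all 8 fits that left out 1 library.

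The remaining calls in LH were smaller and each depended on the libraries used. nr2e1, the Tailless gene, was at 14.1, 11.2, 9.45 and 18.6 CPM in LH and at 27.7, 29.1, 23.9 and 26.7 in non-LH (log2 fold change -1.01 ± 0.25, edgeR adjusted p = 0.0266). nr4a3, an immediate early gene of the NR4A orphan receptors, averaged 43.2 ± 12.1 in LH and 81.8 ± 17.4 in non-LH (-0.92 ± 0.24, edgeR adjusted p = 0.0318). thrb, a thyroid hormone receptor gene, was at 68.3, 55.8, 76.9 and 78.7 CPM in LH and at 130, 102, 85.1 and 113 in non-LH (-0.62 ± 0.17, edgeR adjusted p = 0.0345). For these genes LH and non-LH did not overlap, yet each call was lost in 5 of 8 fits that left out 1 library. nr2e1 lost it without LH 1, LH 2, non-LH 1, non-LH 2 or non-LH 4 (highest adjusted p = 0.0661, without non-LH 2). nr4a3 lost it without LH 3, LH 4, non-LH 1, non-LH 2 or non-LH 4 (highest adjusted p = 0.0874, without non-LH 1). thrb lost it without LH 1, LH 2, non-LH 1, non-LH 2 or non-LH 4 (highest adjusted p = 0.0901, without non-LH 1). The other thyroid hormone receptor genes overlapped, with thraa at 10.7 ± 6.23 in LH and 12.1 ± 2.68 in non-LH and thrab at 61.2 ± 18.3 and 51.7 ± 22.1.

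Estrogen receptors and nr4a1 had higher LH values that missed the threshold. esr1, the estrogen receptor alpha gene, was at 10.0 ± 3.21 CPM in LH with 1.33 ± 1.53 in non-LH, without overlap (log2 fold change 2.91 ± 0.98, edgeR adjusted p = 0.0840; called without non-LH 1 at adjusted p = 0.0446). esr2a, an estrogen receptor beta gene, was at 16.0 ± 4.73 in LH and 3.08 ± 2.08 in non-LH, also without overlap (2.37 ± 1.01, edgeR adjusted p = 0.172; called without non-LH 2 at adjusted p = 0.0112). The other beta gene, esr2b, was at 11.3 ± 4.73 and 10.5 ± 3.04 with overlap. nr4a1, an immediate early gene like nr4a3, was at 159 ± 30.7 in LH and 96.3 ± 32.0 in non-LH (0.73 ± 0.24, edgeR adjusted p = 0.0845), opposite in sign to nr4a3. nr4a1 was called with a block on the replicate number and with DESeq2. nr4a2b was at 8.77 ± 3.86 in LH and 17.4 ± 9.35 in non-LH. Its paralog nr4a2a was detected in a single LH library. In all, 16 of the 67 members with counts had no overlap between LH and non-LH, 7 higher and 9 lower, against 16.7% of all symbols with counts (7.98% higher and 8.67% lower). The exact permutation p for a member without overlap was 0.0286, the smallest that 4 against 4 libraries allow.

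The steroid hormone receptors of NR3C were not called in LH. nr3c1, the glucocorticoid receptor gene, averaged 12.8 ± 2.72 CPM in LH with 15.1 ± 2.42 for non-LH, and ar, the androgen receptor gene, at 3.87 ± 1.68 and 5.79 ± 2.78. nr3c2, the mineralocorticoid receptor gene, was at 0.350 ± 0.585 in LH and 0.382 ± 0.268 in non-LH, and pgr, the progesterone receptor gene, at 1.99 ± 2.26 and 3.24 ± 2.09. The NR5A gene nr5a2, whose mammalian counterpart LRH-1 acts in liver and ovary, was at 13.9, 16.1, 7.07 and 20.2 CPM in LH and at 16.2, 15.5, 23.0 and 12.2 in non-LH, with overlap. Of the steroidogenic factor genes, nr5a1a was at 0.839 ± 0.796 in LH and 3.27 ± 2.23 in non-LH, and nr5a1b at 4.17 ± 4.74 and 9.55 ± 3.53. nr0b1, the DAX1 corepressor gene that in mammals restrains NR5A receptors, was at 3.73 ± 3.75 and 4.30 ± 2.04. None of these was called, and among the members of NR3C and NR5A every LH range overlapped the non-LH range.

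**Figure D3:**
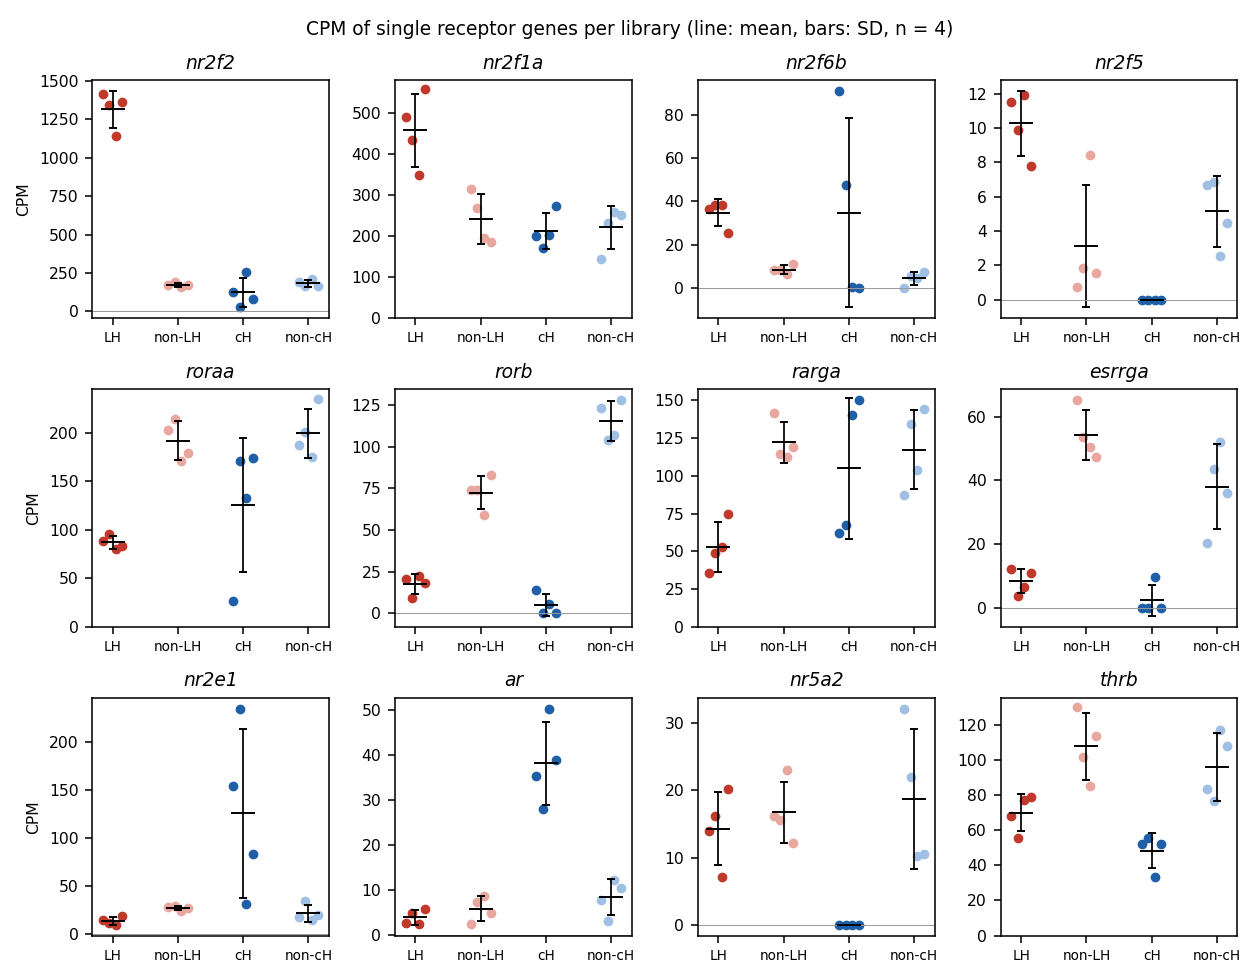
CPM of 12 receptor genes in each library (points), with the mean and SD of 4 libraries per group in black. nr2f2 lies at 1141 to 1413 CPM in LH and at no more than 254 CPM in any other library, nr5a2 and nr2f5 are at 0 in all 4 cH libraries, and ar is highest in cH.

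Of the cell type markers measured alongside, 5 of 14 pan-neuronal genes were lower and 3 higher in LH, and 6 of 15 radial glia genes were lower and 1 higher. The summed radial glia level was 3478 to 5988 CPM in LH libraries and 3308 to 6465 in non-LH libraries. Microglia markers summed to 1948 to 4627 CPM in LH libraries and 1196 to 1577 in non-LH libraries, with 2 of 7 tested genes higher. Erythrocyte markers summed to 53.1 to 102 CPM in LH libraries and 1774 to 2610 in non-LH libraries, with 5 of 5 lower. Oligodendrocyte markers summed to 1568 to 12395 CPM in LH libraries and 9296 to 12749 in non-LH libraries, with 0 of 10 called. Their part in the receptor differences was not tested.

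The second comparison set cH cells against non-cH cells, for the caudal hypothalamic population. Of 53 members tested, 4 were called: nr2e1 higher, and nr5a2, nr2f5 and nr1d4a lower. That is 7.55% of the members, against 11.9% of the 17265 symbols tested (5.05% higher and 6.85% lower), and the median log2 fold change was -0.10 over the members and -0.20 over all symbols. Different receptors were at 0 in different cH libraries. Leaving out non-cH 2, non-cH 3 or non-cH 4 reduced the count to 1 each time, and leaving out cH 2 raised it to 6. With all 16 libraries in the fit 11 members were called, 2 higher and 9 lower. The share of all symbols called in that fit is not given here. The 11 were the same 4 members with ar, esrrb, nr5a1b, pparg, rorab, rorb and thrb. With a block on the replicate number 0 members were called.

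The NR5A receptors were not detected in cH. nr5a2 had 0 counts in all 4 cH libraries, whereas the non-cH libraries held 32.1, 21.9, 10.3 and 10.5 CPM. With 3 counts taken as the limit for the whole cH group, it was at least 832-fold lower by counting error alone (edgeR adjusted p = 0.00898). That floor leaves out the unevenness of the cH libraries, where 15 of the 44 receptors that reached 100 counts in 1 library were at 0 in another. The nr5a2 call held in all 8 fits that left out 1 library (highest adjusted p = 0.0470). It was lost with libraries 1 and 2 of that line alone (0.130), with libraries 3 and 4 alone (0.0636) and with a block on the replicate number (0.201). nr5a1a, nr5a1b and nr5a5 were also at 0 in every cH library, but they were low and uneven in non-cH, at 1.05 ± 2.08, 3.92 ± 4.61 and 0.370 ± 0.740 CPM, and none passed the low-count filter. The COUP-TF gene nr2f5 was at 0 in all 4 cH libraries, whereas the non-cH libraries held 6.69, 6.88, 2.54 and 4.47 CPM. By counting error alone it was at least 227-fold lower in cH (edgeR adjusted p = 0.0135). That call was lost without non-cH 2 (adjusted p = 0.0525), non-cH 3 (0.0514) or non-cH 4 (0.0524). nr1d4a, a REV-ERB gene of fish, had 2 counts in cH, both in cH 1, against 727 counts in non-cH, where the libraries were at 7.24, 1.07, 0.658 and 8.54 CPM. The ratio of its counts was 276-fold lower in cH (exact 95% interval 76.2 to 2285, counting error only; edgeR adjusted p = 0.0337), and the call held in 1 of 8 fits that left out 1 library, the one without cH 1. Without any other single library its adjusted p ran up to 0.0848. Fitted log2 fold changes of genes at 0 depend on the prior count and bound nothing.

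nr2e1 was the 1 member called higher in cH. It was at 154, 235, 30.6 and 83.0 CPM in cH and at 17.2, 34.1, 13.9 and 20.1 in non-cH (log2 fold change 2.55 ± 0.64, edgeR adjusted p = 0.0338). cH 3 lay below non-cH 2, so the groups overlapped (exact permutation p = 0.0571). The call was lost in 6 of 8 fits that left out 1 library, without cH 1, cH 2 or any of the non-cH libraries, with adjusted p up to 0.104 without non-cH 3, and also without cH 1 and 2 together (1.42, adjusted p = 0.109). In mouse this gene keeps neural stem cells undifferentiated. Of 15 radial glia markers, 9 were called higher in cH and 0 lower. glula and slc1a2b averaged 24786 ± 7389 and 37192 ± 11228 CPM in cH with 2021 ± 992 and 1993 ± 1265 in non-cH. Among the cH libraries the glial markers ran in different orders. glula and slc1a2b were lowest in cH 2, at 14057 and 23956 CPM, where nr2e1 was highest. The radial glia marker gfap was at 353, 233, 176 and 156 CPM in cH 1 to 4. The ependymal marker foxj1b was at 284, 387, 15.3 and 14.3 CPM there, with cH 1 and 2 on top as for nr2e1. Of the 14 pan-neuronal genes 10 were called lower, and ependymal markers summed to 201 to 929 CPM in cH and 59.2 to 92.5 in non-cH. Whether these cell type differences account for the values of nr2e1 or of any other receptor in cH was not tested.

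ar had a call that turned with the setting. It was at 35.3, 28.1, 50.3 and 38.8 CPM in cH and at 7.68, 3.09, 12.2 and 10.4 in non-cH, without overlap and with little spread for a cH gene. Its log2 fold change of 2.16 ± 0.60 gave an edgeR adjusted p of 0.0526. It passed with all 16 libraries in the fit (adjusted p = 0.0151), with DESeq2 (6.62e-05) and with voom and a spread per group (0.0293), and without cH libraries 1 and 2 (edgeR adjusted p = 0.0272). It also passed with DESeq2 size factors. It did not pass without a low-count filter, with rows as deposited or with a block on the replicate number. Libraries 1 and 2 or 3 and 4 of the line alone did not call it either. Of the fits that left out 1 library, only that without cH 2 called it (edgeR adjusted p = 0.0343). The PPAR alpha gene pparaa, a fatty acid receptor, was at 176, 26.9, 46.7 and 51.0 CPM in cH and at 23.7, 9.06, 16.3 and 5.07 in non-cH, without overlap (2.47 ± 0.75, edgeR adjusted p = 0.0769; called without cH 2 at adjusted p = 0.0400). pparg, the PPAR gamma gene known from fat tissue, had counts in cH 2 alone, at 0.283 CPM, and averaged 2.80 ± 1.04 in non-cH, without overlap (edgeR adjusted p = 0.134; called without cH 2, at 0 counts in cH, at adjusted p = 0.0200).

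thrb was at 51.8, 55.2, 33.4 and 52.2 CPM in cH and at 83.2, 76.4, 117 and 108 in non-cH, without overlap (log2 fold change -1.02 ± 0.30, edgeR adjusted p = 0.0655). rorb was at 13.7, 0.0709, 5.24 and 0.0451 CPM in cH and at 123, 104, 107 and 128 in non-cH. Every cH library was far below every non-cH library, yet the edgeR adjusted p was 0.113 (-4.61 ± 1.57), and it was 0.0115 with all 16 libraries in the fit. Other thyroid hormone receptors overlapped, with thraa at 38.5 ± 41.4 in cH and 16.9 ± 5.19 in non-cH and thrab at 87.6 ± 39.6 and 45.3 ± 14.4 (thrab called without cH 2 at adjusted p = 0.0412). roraa was at 26.1, 170, 133 and 174 CPM in cH and at 188, 200, 175 and 234 in non-cH, below every non-cH library without being called. In all, 13 of 64 members with counts had no overlap in this line, 2 higher and 11 lower, against 20.4% of all symbols with counts (6.52% higher and 13.9% lower).

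None of the COUP-TF genes called in LH was called in cH. nr2f2 was at 128, 30.5, 254 and 82.1 CPM in cH and at 188, 163, 208 and 164 in non-cH, with overlap. nr2f1a was at 198, 169, 203 and 274 in cH and at 144, 231, 259 and 250 in non-cH. nr2f6b was at 90.9, 47.7, 0.509 and 0.0451 CPM in cH and at 0, 5.44, 4.69 and 7.46 in non-cH: cH 1 and 2 lay above every non-cH library, and cH 3 and 4 below every non-cH library with counts of it. rarga was at 62.4, 67.2, 140 and 150 CPM in cH and at 87.4, 134, 104 and 144 in non-cH, with overlap. esrrga had counts in 1 cH library, at 9.83 CPM in cH 3, and was at 20.5, 43.5, 52.0 and 36.0 in non-cH, without overlap but not called (called without cH 3, where it was at 0 in cH, at adjusted p = 0.00666). Of the estrogen receptors, esr1 was at 0.316 ± 0.631 in cH and 2.35 ± 2.24 in non-cH (called without cH 4, the only cH library with counts of it, at adjusted p = 0.0379), esr2a at 3.89 ± 4.75 and 5.40 ± 4.90, and esr2b at 16.8 ± 13.0 and 12.5 ± 3.18. pgr was at 0 in cH and at 0.625 ± 1.25 in non-cH, and nr3c2 at 1.41 ± 1.65 and 1.34 ± 1.39.

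**Figure D4:**
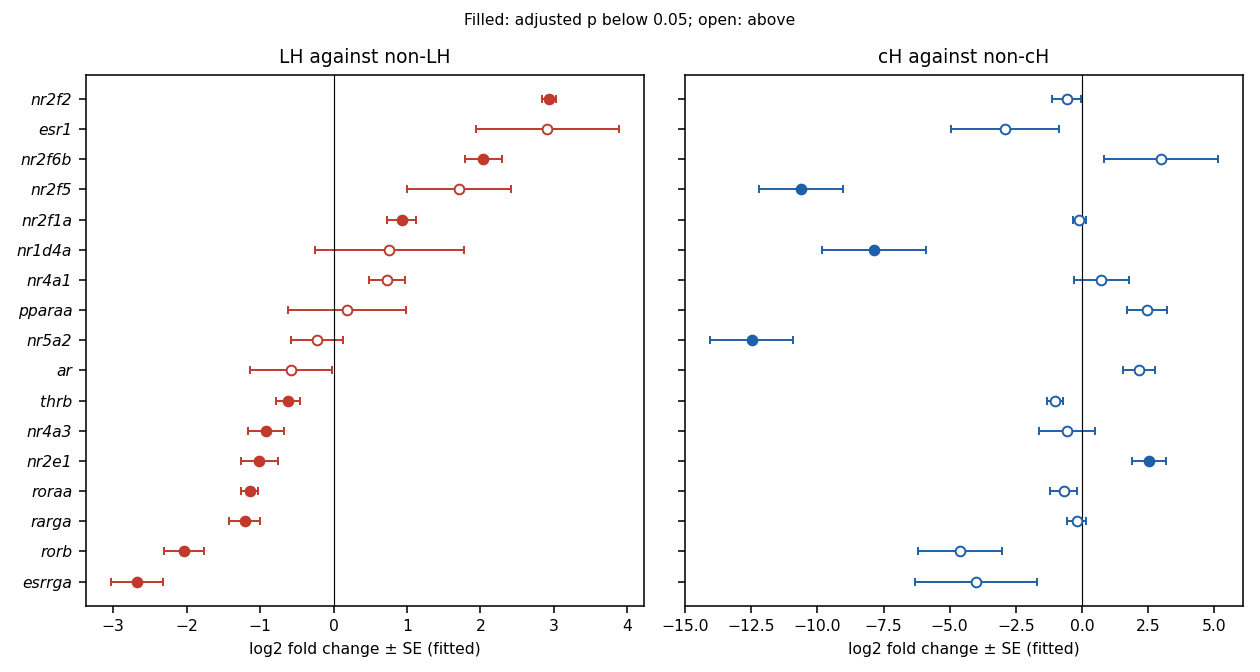
Fitted log2 fold changes with SE of 17 receptor genes in LH against non-LH (left) and cH against non-cH (right), from the fits of 8 libraries each; filled points have an adjusted p below 0.05. nr2f2, nr2f6b and nr2f1a are higher in LH, and nr2e1 is lower in LH and higher in cH; values of nr5a2 and nr2f5 in cH rest on 0 counts there.

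Whether the contrasts of the 2 lines differ was tested in a model of all 16 libraries, as the log2 fold change of LH against non-LH minus that of cH against non-cH. Of 62 members tested, 6 were called, 4 higher and 2 lower, or 9.68% against 12.1% of all symbols (7.54% higher and 4.52% lower). nr2f2 had the larger change in LH by 3.48 ± 0.58 (edgeR adjusted p = 0.000898). nr5a2 (12.26 ± 1.12, edgeR adjusted p = 2.32e-05), nr2f5 (12.34 ± 1.58, 0.000282) and nr1d4a (8.60 ± 2.09, 0.0134) also differed, in each case with cH at or near 0. nr2e1 differed the other way, by -3.59 ± 0.70 (edgeR adjusted p = 0.00309): it was lower in LH and higher in cH than in the negative cells of the same line. ar differed by -2.77 ± 0.80 (edgeR adjusted p = 0.0337). For nr2f1a and nr2f6b, called in LH and not in cH, a difference was not shown (1.00 ± 0.33, edgeR adjusted p = 0.0639, and -0.97 ± 2.07, 0.859). The calls of nr2f2, nr5a2, nr2f5, nr1d4a and nr2e1 were kept in all 16 fits that left out 1 library. With voom and a spread per group, nr2f2, nr2e1 and ar kept theirs, and nr5a2 (adjusted p = 0.0913), nr2f5 (0.0717) and nr1d4a (0.384) lost theirs. The call for ar was lost in 10 of the 16 fits that left out 1 library, with adjusted p up to 0.0819 without non-LH 3. The other 9 were the fits without LH 1 (adjusted p = 0.0702), LH 2 (0.0513), LH 3 (0.0697), non-LH 2 (0.0687), non-LH 4 (0.0541), cH 3 (0.0513), non-cH 1 (0.0639), non-cH 2 (0.0602) or non-cH 4 (0.0531).

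Set directly against each other, LH and cH differed in 7 of 53 members tested, 5 higher and 2 lower in LH, or 13.2% against 13.6% of all symbols (7.55% higher and 6.03% lower). nr2f2 averaged 1315 ± 120 CPM in LH and 124 ± 95.7 in cH (log2 fold change 3.40 ± 0.58, edgeR adjusted p = 0.00772), and nr2f1a 458 ± 89.0 in LH and 211 ± 44.3 in cH (1.11 ± 0.22, 0.0109). By counting error alone, nr5a2 was at least 645-fold higher in LH (edgeR adjusted p = 0.00789) and nr2f5 at least 448-fold higher (0.00822). nr1d4a was at 0.368, 1.2, 17.1 and 3.98 CPM in LH and at 0.0620, 0, 0 and 0 in cH. Its call (edgeR adjusted p = 0.0366) was lost in each of the 8 fits that left out 1 library, with adjusted p from 0.0522 without cH 1 to 0.0791 without LH 3. ar was at 2.69, 4.73, 2.26 and 5.80 CPM in LH, under every cH library (-3.31 ± 0.60, edgeR adjusted p = 0.00913), and nr2e1 averaged 13.3 ± 4.02 in LH and 126 ± 88.6 in cH (-3.26 ± 0.64, 0.0114). The calls of the other 6 held in all 8 fits. LH and cH did not overlap in 16 of 62 members with counts, 12 higher and 4 lower, against 23.1% of all symbols (15.9% higher and 7.19% lower).

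The negative cells of both lines were compared for differences between the lines outside the marked cells. This comparison cannot reach effects of the driver or reporter in the cells that carry them, and each negative fraction lacks a different marked population. Of 58 members tested between non-LH and non-cH, 0 were called by edgeR, where 5 members had an unadjusted p below 0.05 and DESeq2 called 2, nr3c1 and rorb. Of 18865 symbols tested edgeR called 0.0689%, 0.0265% higher and 0.0424% lower in non-LH. Of 67 members with counts 2 did not overlap, nr3c1 and rorb, both lower in non-LH, against 5.18% of all symbols (2.96% higher and 2.22% lower). nr3c1 was at 16.2, 17.9, 12.6 and 13.6 CPM in non-LH and at 23.0, 52.0, 45.9 and 53.1 in non-cH, without overlap (log2 fold change -1.53 ± 0.28, edgeR adjusted p = 0.141, DESeq2 adjusted p = 0.000129). Without non-cH 1 the edgeR adjusted p was 0.0251. cH libraries, from the same line as non-cH, had 11.0, 109, 51.2 and 47.5 CPM. The gene has 3 rows in the table, and the row nr3c1_2 held most of the difference, with totals of 1104 for LH and 1572 for non-LH against 6315 for cH and 6722 for non-cH, while nr3c1_1 had 757 in LH, 986 in non-LH, 617 for cH and 828 for non-cH. Tested as its own row, nr3c1_2 differed between non-LH and non-cH (-2.08 ± 0.36, edgeR adjusted p = 0.0338). Any difference of nr3c1 between LH and cH lies beside this one between their negative cells. rorb averaged 72.4 ± 10.1 in non-LH and 116 ± 11.9 in non-cH (-0.68 ± 0.14, edgeR adjusted p = 0.169), and its ranges did not overlap either.

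Some receptors of the NR4A and NR1D subfamilies, nr1d2a among them chosen after its values were seen, varied with the library number in the GFP line, in positive and negative cells alike. nr4a1 was at 305, 490, 14.9 and 49.1 CPM in cH libraries 1 to 4 and at 175, 252, 34.3 and 54.9 in non-cH. nr4a3 was at 156, 352, 8.22 and 29.9 in cH and at 349, 319, 53.9 and 93.2 in non-cH. Libraries 1 and 2 were above libraries 3 and 4 for both genes in both fractions. nr1d1, a REV-ERB repressor gene of the clock, was at 166, 113, 0 and 0 CPM in cH and at 22.9, 27.3, 0 and 7.30 in non-cH. nr1d2a was at 262, 111, 32.8 and 13.9 in cH and at 327, 254, 142 and 163 in non-cH, again with libraries 1 and 2 on top. The other members of the 2 subfamilies did not split this way in both fractions. Among them nr1d2b was at 170, 478, 310 and 291 CPM in cH and at 330, 349, 264 and 283 in non-cH. nr4a2b was at 0.0620, 77.5, 7.64 and 17.5 in cH and at 16.7, 54.2, 11.7 and 17.3 in non-cH. The variation was not confined to receptors. The monoamine genes tph1a and th2, chosen after their values were seen, were also above libraries 3 and 4 in libraries 1 and 2 of both fractions. In the GCaMP6s line nr1d1 was at 34.9, 15.2, 18.6 and 34.9 CPM in LH and at 9.44, 26.9, 18.4 and 20.5 in non-LH. There nr4a1 was at 186, 185, 141 and 126 in LH and at 125, 120, 81.1 and 58.4 in non-LH. nr4a3 was at 54.3, 51.5, 27.9 and 39.2 in LH and at 97.0, 94.5, 59.9 and 75.8 in non-LH. So libraries 1 and 2 were above libraries 3 and 4 for nr4a1 and nr4a3 in both fractions of this line too, but not for nr1d1. The labels give no batch, day or time of collection, so what the numbers stand for is not known. None of nr4a1, nr4a3, nr1d1 and nr1d2a was called in cH against non-cH, and nr1d2a was called without cH 1 and 2. With libraries 1 and 2 of cH and non-cH alone 0 members were called, and with libraries 3 and 4 alone 1, rxrba.

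**Figure D5:**
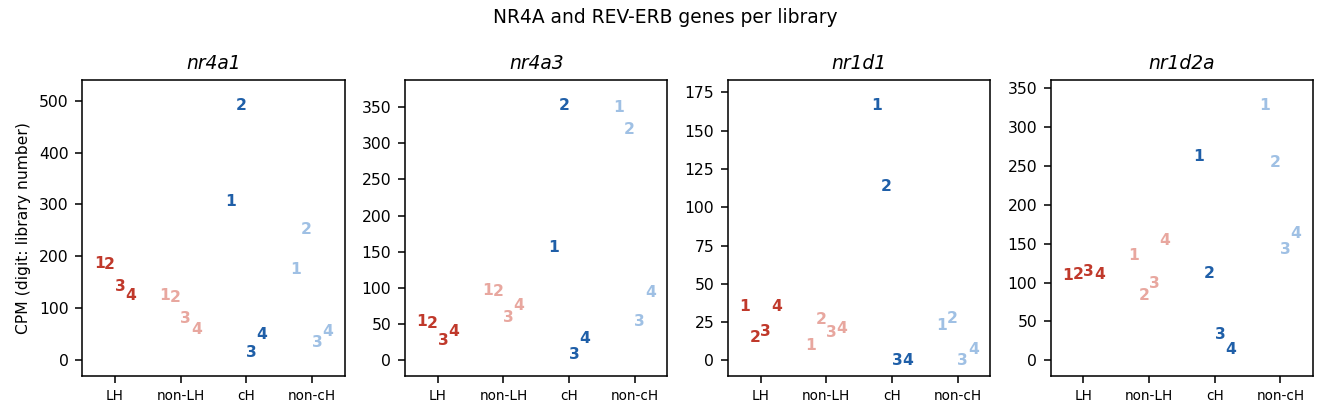
CPM of nr4a1, nr4a3, nr1d1 and nr1d2a in each library, drawn as the library number, for LH, non-LH, cH and non-cH. In cH and non-cH the libraries numbered 1 and 2 lie above 3 and 4 for every one of these genes. In LH and non-LH this holds for nr4a1 and nr4a3.

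The partners of the receptors changed in few places, described here from lists chosen with earlier results known and read against the shares of all symbols called above. Of 25 coregulator genes, 1 was higher and 1 lower in LH: ncor1, a corepressor of unliganded receptors, at 209.8 ± 32.1 CPM in LH with 91.8 ± 12.6 for non-LH (log2 fold change 1.19 ± 0.14, edgeR adjusted p = 0.000495), and nrip1b at 38.5 ± 7.18 and 59.8 ± 2.65 (-0.63, 0.0295). In cH 1 was higher and 2 lower. ppargc1a, the PGC-1 alpha coactivator gene, was at 0 in all 4 cH libraries and at 16.1 ± 7.68 in non-cH (edgeR adjusted p = 0.00985), and ncoa5 was at 135 ± 21.9 and 226 ± 24.7 (0.0396). Of 8 chaperone genes that hold steroid receptors, hsp90ab1 was lower in LH (-0.39 ± 0.05, edgeR adjusted p = 0.000971) with ptges3b (-0.61 ± 0.13, 0.0118), and hsp90ab1 was lower in cH (-0.77 ± 0.18, 0.0272).

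Genes that make or carry ligands were called in both lines. Of 14 retinoid genes tested, 0 were higher and 4 lower in LH, among them crabp1a, a retinoic acid binding protein gene, at 11.1 ± 3.28 CPM in LH with 46.1 ± 2.25 for non-LH (edgeR adjusted p = 0.000378), and rbp4, the retinol carrier gene, at 4.57 ± 3.06 and 59.3 ± 18.5 (0.000896). In cH cyp26b1, which degrades retinoic acid, was at 544 ± 260 in cH and 136 ± 80.2 in non-cH (edgeR adjusted p = 0.0498), and cyp26a1, of the same function, was at 0 in cH and 7.18 ± 2.23 in non-cH (0.0128). Of 8 thyroid hormone genes tested, 3 were higher in LH, including dio3a, a deiodinase gene that inactivates the hormone, at 20.6 ± 4.69 and 3.53 ± 2.31 CPM in LH and non-LH (edgeR adjusted p = 0.00640), and slc16a10, a transporter gene, at 69.0 ± 20.0 and 28.6 ± 7.92 (0.0126). Of 8 tested in the other line, 1 was higher and 1 lower in cH, and the list summed to 264 ± 30.8 CPM in cH with 92.3 ± 19.6 for non-cH. The lower gene, slco1c1, a transporter gene, had 0 counts in cH, against 8.70 ± 2.58 CPM for non-cH (edgeR adjusted p = 0.0122). No steroid synthesis gene was called by edgeR, 0 of 13 tested in LH and 0 of 10 in cH. Uncalled but without overlap, cyp19a1b, also on the radial glia list, was at 140, 95.6, 144 and 454 CPM in cH. In non-cH it was at 13.7, 5.14, 44.1 and 59.5 CPM. The list summed to 429 ± 253 CPM in cH and 146 ± 36.2 in non-cH, with ranges that overlapped.

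Target lists of the receptors moved in a few genes each. Of 13 glucocorticoid targets, 3 were higher and 1 lower in LH (errfi1a at 1.92 ± 0.26, edgeR adjusted p = 0.000909, and nfkbiaa at 0.98 ± 0.28, 0.0448), and in cH sgk1 was higher (1.62 ± 0.27, 0.00881) and ddit4 was at 0 in cH with 2.59 ± 1.14 CPM in non-cH (0.0143). Of the oxysterol receptor targets, 3 of 9 were higher in LH, including abca1a (0.99 ± 0.13, edgeR adjusted p = 0.000630) and mylipa (1.23 ± 0.32, 0.0297). In cH 2 of 8 were higher, mylipa (3.39 ± 0.27, 0.000813) and abca1a (1.24 ± 0.32, 0.0362). Of 23 clock genes, 4 were higher and 1 lower in LH, with hlfb at 67.0 ± 8.00 CPM in LH with 8.96 ± 3.15 for non-LH (edgeR adjusted p = 9.12e-05) and dbpb at 30.3 ± 6.26 and 11.3 ± 2.58 (0.00422). In cH 1 was lower, tefb (-1.89 ± 0.50, edgeR adjusted p = 0.0420). Of the PPAR targets, fabp7a was the 1 of 14 lower in LH (-1.26 ± 0.24, edgeR adjusted p = 0.00600), and 3 of 12 were higher in cH, among them fabp7a (3.50 ± 0.47, 0.00380). fabp7a is also a radial glia marker. Of the HNF4 genes 1 was tested, in LH, and it was not called.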

How the data were processed

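RNA-seq was made from 16 pools of sorted zebrafish brain cells, 4 in each of 4 groups. Per the labels' protocols, RNA was amplified with SMART-seq v2 and tagmented with Nextera XT, and FastQC, STAR and the build GRCz11 are listed in the submitters' processing notes. The read counter, its use of strand and its treatment of reads with several matches are not given in the sources used here. The authors deposited whole-number counts per gene, not normalised. Of 47038 rows, 9 damaged ones were left out, and rows of a symbol (endings _1, _2) were summed. What these rows are is not stated, so values of the 12 members with more than 1 row (26 rows) are uncertain, as are those of close paralogs. Of 172 member counts from 1 to 100, 61.6% were even; should each fragment have been counted once per read, floors and intervals, which cover counting error only, are too narrow.

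Tests used edgeR 4.0.16 (R 4.3.3): TMM, filterByExpr (minimum count 10, minimum total 15), robust quasi-likelihood F tests, two-sided, with Benjamini-Hochberg adjustment over all symbols tested and a threshold of 0.05, fitted on the 8 libraries of each comparison, or on all 16 for the difference of contrasts. SE was taken as the absolute log2 fold change over the root of its F statistic. Every adjusted p printed without another tool's name is from edgeR. Alternatives were a fit of all 16 libraries, DESeq2 1.42.0 with its own test or its size factors alone, limma 3.58.1 voom with a spread per group, no filter, rows as deposited, a block on the replicate number, leaving out each library, leaving out cH 1 and 2, and, added after seeing the data, the GFP line's libraries 1 and 2 or 3 and 4 alone. The tests were tested on simulated data, with an outcome not given here. The simulation gave both groups of a comparison the same spread per gene, so it does not cover the unevenness of the cH libraries. Labels call the libraries biological replicates of 8 pooled brains.

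The members, lists and the 8-library fits were chosen with earlier results of these data known. Named are all called members, a set of 24 receptors whatever their result, and the 2 called members with the smallest p in each other list (some are not reported here); values in every library are given for the 8 smallest p in each line's comparison and for members called in the difference. Replicate numbers were taken to pair positive and negative libraries only if their deviations correlated above 0.1, a limit chosen here. Same-numbered libraries had correlations of -0.0094 to 0.0318 in the GCaMP6s line and of 0.0107 to 0.0396 in the GFP line. They were not taken as pairs, and a block on the number is an alternative only. The 4 cH calls depend on this choice, since with the block 0 members were called in cH against non-cH.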

Additional observations from a re-analysis of the deposited data

Results flagged for a closer look

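In groups of 4 libraries, a library was singled out where its gap to the nearest other library exceeded Dixon's 95% critical share of the group's range. Among the 31 named receptors this held in 16 of the 118 groups with counts (13.6%), against 20.3% of such groups over all symbols. Chance gives about 1 in 20 for normally distributed values, but a group with 0 in 3 libraries and counts in the fourth always meets the criterion, as 7 of the 16 did. Of the 16, 7 were in cH. pparaa was at 176 CPM in cH 1 with at most 51.0 in the other cH libraries, nr0b1 at 36.9 in cH 2 with at most 5.39, and esrrga at 9.83 in cH 3 with 0 elsewhere in cH. esr1 was at 1.26 CPM in cH 4, pparg at 0.283 in cH 2 and nr1d4a at 0.0620 in cH 1, each with 0 in the other cH libraries. thrb was low in cH 3, at 33.4 CPM with at least 51.8 in the others.

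In non-cH the single high libraries were non-cH 1 for nr4a2a (5.55 CPM, with 0 elsewhere in the group) and nr3c2 (3.41, with at most 0.767 in the others), and non-cH 2 for nr4a2b (54.2, with at most 17.3). They were also non-cH 3 for pgr (2.50, with 0 elsewhere) and non-cH 4 for nr5a1a (4.17, with at most 0.0219). In LH they were LH 1 for nr3c2 (1.22, with at most 0.181) and LH 2 for nr4a2a (0.749, with 0 elsewhere), and LH 4 was low for nr2f6b at 25.5 CPM, with at least 36.5 in the others. In non-LH, nr2f5 was at 8.45 CPM in non-LH 3 with at most 1.84 elsewhere.

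In the model of all 16 libraries, 6 receptors had different log2 fold changes in LH against non-LH and in cH against non-cH (edgeR, the first minus the second). The differences were 12.26 for nr5a2, 12.34 for nr2f5, 8.60 for nr1d4a, 3.48 for nr2f2, -3.59 for nr2e1 and -2.77 for ar. cH held 0 counts of nr5a2 and nr2f5 and 2 of nr1d4a, so the sizes of these differences depend on the prior count and bound nothing. nr5a2, nr2f5 and nr1d4a lost their calls with voom, and ar lost its call in 10 of 16 fits that left out 1 library.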

How the results depend on the processing

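The count of members called changed with the model more than with the scaling. In LH against non-LH, 10 were called; a fit of all 16 libraries called 1 and DESeq2 16, and leaving out 1 library gave 7 to 11. In cH against non-cH, 4 were called; the 16-library fit called 11, DESeq2 10 and voom with a spread per group 8. Without cH libraries 1 and 2 the count was 9 (nr2e1 no longer among them), and, as fits added after seeing the data, with libraries 1 and 2 of that line alone 0, with libraries 3 and 4 alone 1 (rxrba, not among the 4), and leaving out 1 library gave 1 to 6. In LH against cH, 7 were called; the 16-library fit called 12, DESeq2 12, the fit without cH libraries 1 and 2 17, and leaving out 1 library gave 6 to 10. In non-LH against non-cH, 0 were called; DESeq2 called 2, rows tested as deposited 1 (nr3c1), and leaving out 1 library gave 0 to 1. For the difference of contrasts, 6 were called; DESeq2 called 15, voom 3 (without nr5a2, nr2f5 and nr1d4a), the fit without cH libraries 1 and 2 17, and leaving out 1 library gave 5 to 8. In each case why the count moved was not tested. The share of all symbols called in each alternative fit is not given here, so a higher or lower count is not read as particular to receptors.

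With the replicate number as a block, 10 members were called in LH against non-LH, 9 of them shared, with nr4a1 gained. The block left 0 called in cH against non-cH and 5 in the difference. Same-numbered libraries did not correlate above 0.1, so the numbers were not taken as pairs. Each cH library correlated best with the non-cH library of its own number, which did not hold in LH.

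Over the named members, DESeq2 size factors in place of TMM left all 10 LH calls and all 4 cH calls in place, and added ar in cH. Without a low-count filter nr1d4a was no longer called in cH (adjusted p = 0.0702), and thrb was not called in LH with the block (0.0674). The block was not fitted for LH against cH or for non-LH against non-cH, whose numbers belong to different lines. No called member changed sign under any alternative. Sign changes came in members called in neither fit, 19 of 449 alternative values in 7 members for LH and 43 of 485 in 11 members for cH.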
